A study of Mus musculus with 4 samples.

Results

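The genes described are 10 genes of the activated blood vessel lining, taken from a mouse study of diet and endotoxin. They comprise 5 adhesion genes (Sele, Selp, Icam1, Vcam1 and Madcam1), the ligand gene Angpt2, and 4 endothelial markers (Pecam1, Cdh5, Tek and Kdr). Probes were chosen by gene name, or by the current symbol of their accession, and 18 probes with 63 spots on each array carried 1 of these names. The whole array held 41174 gene probes for 28750 genes. Male C57BL/6J mice, 7 weeks old, ate for 4 weeks either a purified diet low in nucleoprotein with 0.03% nucleic acids, here called control, or that diet with 1.2% of a nucleoprotein product and 0.5% nucleic acids. Both groups then received lipopolysaccharide, a component of the bacterial outer membrane, at 10 mg/kg, 6 h before liver and spleen were removed. Within each organ RNA was pooled by diet group, and 2 two-colour arrays each carried a control and a nucleoprotein pool. The nucleoprotein RNA was labelled with Cy5 on array 1 and with Cy3 on array 2. Mice without lipopolysaccharide were not analysed here, so what the injection itself did to these genes could not be measured.

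Leukocytes leave the blood in steps. The selectins E-selectin (Sele) and P-selectin (Selp) on the vessel wall slow them to a roll, and the immunoglobulin family members Icam1, Vcam1 and Madcam1 then hold them through integrins. Endotoxin and the cytokines it releases are known to switch on Sele, Selp, Icam1 and Vcam1 in mouse endothelium, largely through NF-kB. Angiopoietin-2 (Angpt2), released by endothelium, works against the quieting signal of the receptor Tie2 (Tek). Pecam1 and VE-cadherin (Cdh5) sit at endothelial junctions, and Kdr is the main signalling receptor for VEGF-A. Several of these are not endothelial alone. Selp and Pecam1 are also made in platelets and their precursors, Icam1 in leukocytes, hepatocytes and macrophages, and Vcam1 in macrophages and stromal cells of the spleen.

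All 10 genes were measurable in both organs, meaning that the probe standing for the gene exceeded background on both arrays for at least 1 diet. That probe was the one with the highest mean intensity, and for each gene it was well above background in all 8 channels. Over the whole array, the share of gene spots well above background was 55.2% to 66.9% for liver and 62.2% to 72.8% for spleen, and 0 spots were saturated. Levels below are log2 intensities of single channels after background correction, loess and scaling between arrays. The lowest level of a probe well above background lay between 5.82 and 6.15, depending on the channel. Levels of different probes are not comparable, since each probe has its own binding strength. Array 1 and array 2 of an organ were taken as a technical dye swap of 1 pool per diet, so the SD covers labelling and array error, and no test was run. The labels number the pooled samples 1 and 2 without saying whether they were the same pools.

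Between the organs, the selectins had their higher level in liver. The organ difference was taken 4 times, liver minus spleen within the same dye and the same diet. A gene was called brighter in an organ when all 4 differences passed 2-fold in that direction. On the whole array 12.2% of 19899 genes were called brighter in liver and 15.8% were called brighter in spleen. Of the 10 genes, 1 was called brighter in liver (Selp) and 5 in spleen (Icam1, Vcam1, Angpt2, Pecam1 and Kdr), 6 in all against a background of 27.9% for either direction. The 4 liver channels did not overlap the 4 spleen channels for 9 of the 10 genes, 3 with liver above (Sele, Selp and Tek) and 6 with liver below. The same held for 80.1% of all genes measured, 35.3% with liver above and 44.8% with liver below. In whole organs, fewer cells of a type and less RNA per cell cannot be told apart. The same slide carried all 4 arrays, and organ and hybridisation cannot be told apart beyond that.

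**Figure D1:**
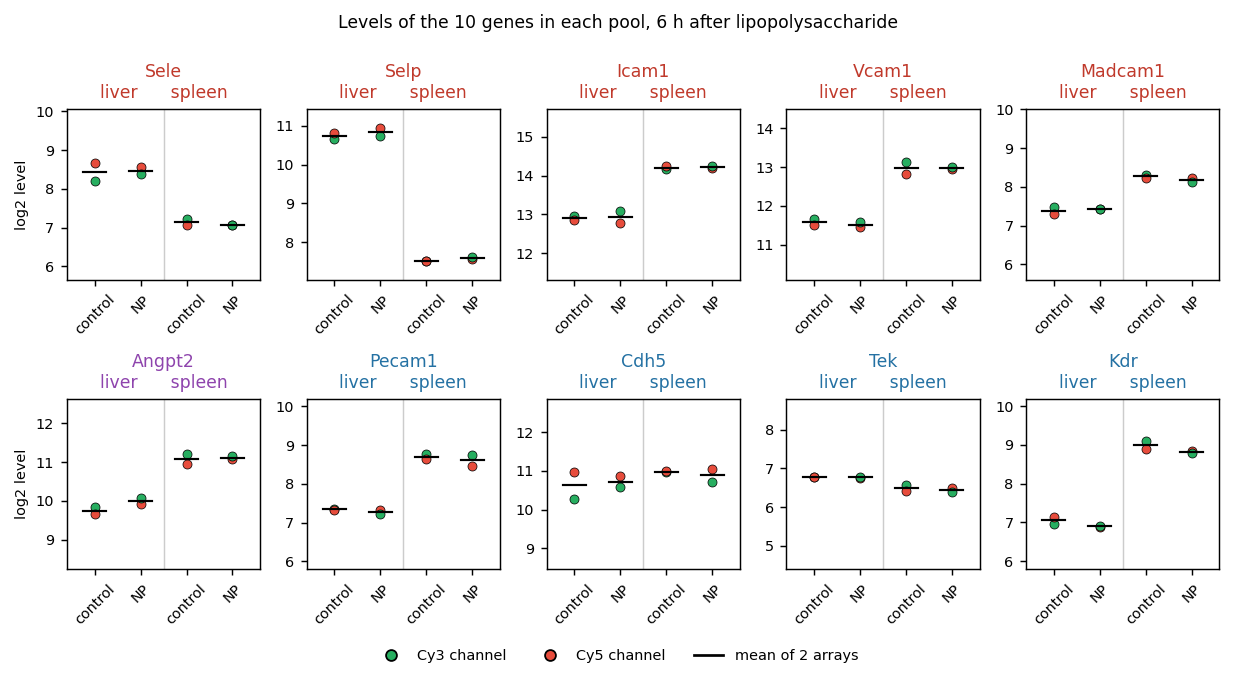
Log2 level of each gene in every channel (vertical axis, 1 panel per gene, each spanning 4.4 log2 units with its own origin) in the control and nucleoprotein (NP) pools of liver and spleen. Green points are Cy3, red points Cy5, and bars are means of 2 arrays. Selp lay between 10.65 and 10.95 in liver and between 7.52 and 7.61 in spleen, and the 2 diets lay close together in each organ.

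Selp, the selectin stored in endothelial and platelet granules, had the largest organ difference of the 10 genes. In liver its levels were 10.65 and 10.82 in the control pool and 10.95 and 10.73 in the nucleoprotein pool. In spleen they were 7.52 and 7.52 in the control pool and 7.57 and 7.61 in the nucleoprotein pool. Every liver value was thus more than 3 log2 units above every spleen value. The mean difference was 3.23 ± 0.13 (SD over 4 dye-matched differences), or 9.40-fold, and 3.90% of all genes lay further towards liver. A second Selp probe gave 2.58 ± 0.13, or 5.98-fold, although in spleen its signal was only 1.66 to 2.55 times the local background. The spot that gave this second reading binds the message through the following sequence, shown because it measures Selp independently of the brightest probe, as read from the array design.
Selp second probe: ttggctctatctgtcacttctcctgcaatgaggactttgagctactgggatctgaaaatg
On mouse build mm7 it lies at chr1:164104808-164104867 on the plus strand. The direction was the same on both probes and in all 4 comparisons. Of 11 platelet markers measured, 0 had a higher level in liver, 8 were called brighter in spleen, and the median difference was -1.59. Their summed linear level ran from 2492 to 2575 in the liver channels and from 12206 to 14097 in the spleen channels. The part of platelets in the Selp level of either organ was not tested.

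Sele, the selectin made by activated endothelium, was also brighter in liver, by less. Its liver levels were 8.21 and 8.66 in the control pool and 8.55 and 8.39 in the nucleoprotein pool. Its spleen levels were 7.21 and 7.06 in the control pool and 7.06 and 7.06 in the nucleoprotein pool. The organs did not overlap. The mean difference was 1.35 ± 0.26, or 2.55-fold, with a range of 1.99-fold to 3.03-fold. It was not called, because 1 of the 4 differences was just short of 2-fold. Without array 1 of each organ it was called. Before any scaling, the green signal over local background was 2.60 and 3.11 for liver and 2.63 and 2.30 for spleen, so in green the organs were close. In red it was 9.28 and 9.64 against 4.22 and 4.60.

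**Figure D2:**
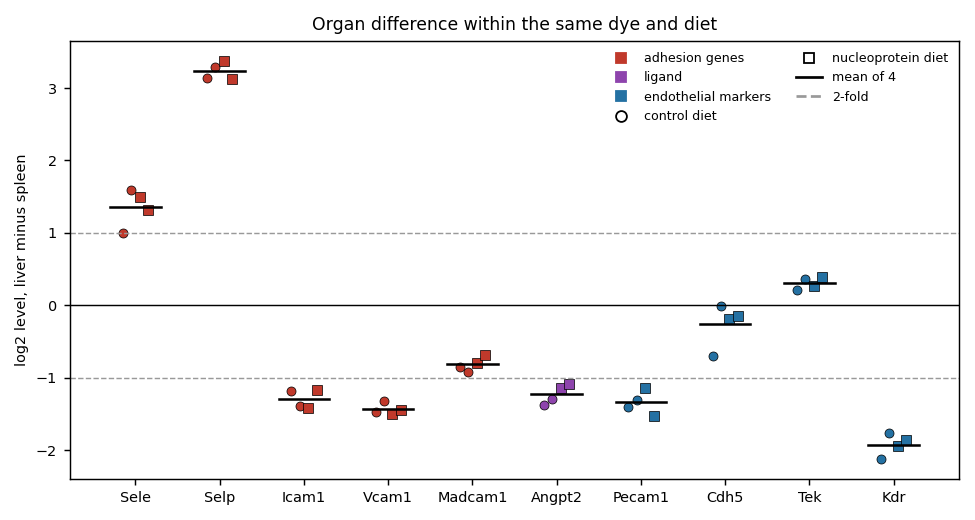
Liver minus spleen difference in log2 level (vertical axis) for each gene. Points are the 4 differences within 1 dye and diet (circles control, squares nucleoprotein), bars are their means and dashed lines mark 2-fold. Selp at 3.23 and Sele at 1.35 lie above 0, while Icam1, Vcam1, Angpt2, Pecam1 and Kdr lie at or beyond -1.

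The immunoglobulin family adhesion genes ran the other way. Icam1, the receptor for the leukocyte integrins LFA-1 and Mac-1, had levels of 12.97 and 12.84 in control liver and 12.78 and 13.08 in nucleoprotein liver. Spleen levels were 14.16 and 14.24 in control and 14.19 and 14.25 in nucleoprotein. All 4 spleen channels were above all 4 liver channels. The mean difference was -1.29 ± 0.13, a level 2.45-fold higher in spleen. A second Icam1 probe gave -0.96 ± 0.08, or 1.95-fold. Its 60 bases are given because the 2 probes of this gene lay on either side of the 2-fold bound.
Icam1 second probe: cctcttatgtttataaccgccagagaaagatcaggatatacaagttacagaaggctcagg
Its mm7 position is chr9:20904404-20904463 on the plus strand.

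Vcam1, the ligand of the integrin VLA-4, had the same direction as Icam1. Levels were 11.66 and 11.51 in control liver, 11.46 and 11.57 in nucleoprotein liver, 13.14 and 12.83 in control spleen, and 12.95 and 13.02 in nucleoprotein spleen. The organs did not overlap and the mean difference was -1.43 ± 0.08, or 2.70-fold towards spleen. A second Vcam1 probe gave -1.03 ± 0.12, or 2.05-fold, in the same direction. Its smallest difference, -0.91, was short of 2-fold, so this probe alone was not called.
Vcam1 second probe: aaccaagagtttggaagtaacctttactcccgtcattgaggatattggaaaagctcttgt
That probe lies on mm7 at chr3:115900948-115901007 on the minus strand. The third Vcam1 probe was not well above background in any of the 8 channels and gave no information.

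Madcam1 is the addressin of gut vessels and of the lining of the splenic marginal sinus. It had the smallest organ difference of the adhesion genes under the scaling used here, a rank that did not hold under the 75th percentile scaling below. Liver levels were 7.47 and 7.29 in control and 7.42 and 7.44 in nucleoprotein, and spleen levels were 8.31 and 8.22 in control and 8.22 and 8.12 in nucleoprotein. All spleen channels were higher, by a mean of 0.81 log2 units (the difference, liver minus spleen, was -0.81 ± 0.10), or 1.76-fold, which did not reach the bound. In liver its signal was only 1.96 to 3.53 times the local background. On the mm7 genome the ends of its single probe lie 312 bases apart, at chr10:79445144-79445455 on the plus strand.
Madcam1 probe: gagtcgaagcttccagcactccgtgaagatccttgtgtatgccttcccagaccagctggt

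Angpt2 had levels of 9.83 and 9.66 in control liver and 9.93 and 10.07 in nucleoprotein liver. In spleen they were 11.21 and 10.95 in control and 11.07 and 11.16 in nucleoprotein. The spleen was higher in every channel, by 2.34-fold on average (-1.22 ± 0.13).

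The 4 endothelial markers did not move as 1 group between the organs. Kdr had the lowest liver reading relative to spleen, with levels of 6.97 and 7.13 in control liver, 6.89 and 6.91 in nucleoprotein liver, 9.09 and 8.90 in control spleen, and 8.84 and 8.78 in nucleoprotein spleen. The difference was -1.93 ± 0.15, or 3.80-fold towards spleen, and 6.90% of all genes lay further that way. In liver the Kdr signal was at most 2.73 times the local background, so the size of the difference rests on a dim reading there. A second Kdr probe, spotted 10 times, was not well above background in any channel.

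Pecam1 had levels from 7.22 to 7.36 over the 4 liver channels and from 8.47 to 8.77 over the 4 spleen channels. That is a difference of -1.34 ± 0.17, or 2.54-fold towards spleen, with no overlap. The ends of this probe lie 1854 bases apart on mm7, at chr11:106790116-106791969 on the minus strand.
Pecam1 probe: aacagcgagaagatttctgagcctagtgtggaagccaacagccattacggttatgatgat
A second, dim Pecam1 probe, well above background in 3 of 8 channels, gave -0.22 ± 0.08. Cdh5, the cadherin of endothelial junctions, had overlapping levels. Its liver levels lay between 10.28 and 10.97 and its spleen levels between 10.72 and 11.05, and the difference was -0.26 ± 0.30. The other Cdh5 probe gave 0.32 ± 0.26, so the probes differed in sign and no direction is given for this gene. Tek was dim in both organs, at 6.76 to 6.79 in liver and 6.40 to 6.56 in spleen, with signals of 1.47 to 2.36 times background. Its difference was 0.30 ± 0.08, or 1.23-fold towards liver.

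Set against the endothelial markers, the adhesion genes split in 2. The median organ difference was -0.81 for the 5 adhesion genes and -0.80 for the 4 markers, against -0.10 for all genes measured. The adhesion median minus the marker median was -0.01 ± 0.23 over the 4 comparisons, with a range of -0.27 to 0.21. That near-zero value joins genes on opposite sides. Relative to the marker median, Selp was 4.04 ± 0.11 log2 units higher in liver, a relative difference of 16.4-fold, and Sele was 2.15 ± 0.08 higher, or 4.45-fold. Madcam1 was the middle adhesion gene in all 4 comparisons. Its value of -0.01 ± 0.23 is therefore the group value above and no separate result. Icam1 lay at -0.49 ± 0.31, Angpt2 at -0.42 ± 0.17 and Vcam1 at -0.63 ± 0.17, and each of these 3 was below 0 in all 4 comparisons. The markers themselves ran from -1.12 (Kdr) to 1.11 (Tek) around their median, so these 3 genes lay inside the marker range. With each channel's processed signal centred on its 75th percentile instead, the direction turned for Icam1 (0.50 ± 0.26) and Vcam1 (0.12 ± 0.20), and Angpt2 was -0.12 ± 0.23, while Selp (4.99 ± 0.07) and Sele (2.95 ± 0.22) stayed above the markers.

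How large these organ differences were depended on the scaling between organs. Under the 75th percentile scaling the difference was 1.98 for Sele and 4.01 for Selp, and both were called brighter in liver. Under that scaling Pecam1 and Kdr, the latter at -3.00, remained called in spleen, but Icam1 at -0.47, Vcam1 at -0.85 and Angpt2 at -1.09 did not. Madcam1 lay at -1.20, further towards spleen than Icam1 and Vcam1, and was not called. Cdh5 changed sign, to 0.05, and Tek moved to 1.01. The other 9 genes kept their sign under each scaling, offset, probe rule and single array pair tried.

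Further endothelial and adhesion genes place these values in context. Of 28 other genes expressed across endothelium, 27 were measurable in 1 organ or both, with a median difference of -0.58. Of these, 7 were higher in liver and 20 in spleen, 0 were called in liver and 5 in spleen. The largest towards spleen was Fli1, a transcription factor shared with blood cells, at -2.81 ± 0.15, and the largest towards liver was the junction gene Esam at 1.09 ± 0.15. Of 11 genes of the sinusoidal endothelium of liver and spleen, 3 were called in liver and 2 in spleen. Lyve1, a hyaluronan receptor, led towards liver at 3.37 ± 0.12, and the inhibitory Fc receptor Fcgr2b, also made by B cells, led towards spleen at -2.64 ± 0.13. Among 16 other adhesion and junction genes, 5 were called in each organ. Ackr1, the chemokine receptor of venules and red blood cells, was 13.9-fold higher in liver (3.80 ± 0.11), and Cx3cl1, a membrane-bound chemokine, was 20.7-fold higher in spleen (-4.37 ± 0.06). The lists overlap, so their counts are not separate. Icam2 and Cd34 were among the spleen calls both here and among the genes expressed across endothelium. Cx3cl1 is counted again among the cytokine-induced genes.

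The leukocyte partners of these genes were all brighter in spleen. All 11 counter-receptor genes measured, integrin chains and selectin ligands, had the lower level in liver, 9 of them past the bound, with a median of -3.00. Selplg, which carries the main P-selectin ligand, differed by -3.98 ± 0.13, or 15.8-fold, opposite in direction to Selp itself. Of 24 other cytokine-induced genes of activated endothelium, many also made by other cells, 4 were called in liver and 10 in spleen. Lrg1, which hepatocytes also secrete, was furthest towards liver at 4.06 ± 0.45. Of 12 other genes of the angiopoietin and VEGF system, 2 were called in liver and 0 in spleen. Angpt2 and Kdr, both called in spleen, and Tek belong to that system but are not counted in this list. Among the 12, the VEGF co-receptor Nrp1 was highest in liver relative to spleen, at 3.50 ± 0.19. Cell types other than endothelium also differed between the organs. B cell markers had a median of -4.42 (8 of 9 called in spleen and 0 in liver), and T and NK cell markers one of -2.71 (8 of 10 in spleen and 0 in liver). Macrophage markers had a median of -1.59, with 9 of 13 called in spleen and 2 in liver, and stromal markers one of -1.42, with 8 of 15 in spleen and 3 in liver. Neutrophil markers had a median of -0.81, with 1 of 11 called in each organ. Hepatocyte markers had a median of 7.73, with 17 of 18 called in liver. Their part in the organ differences of the 10 genes was not tested.

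**Figure D3:**
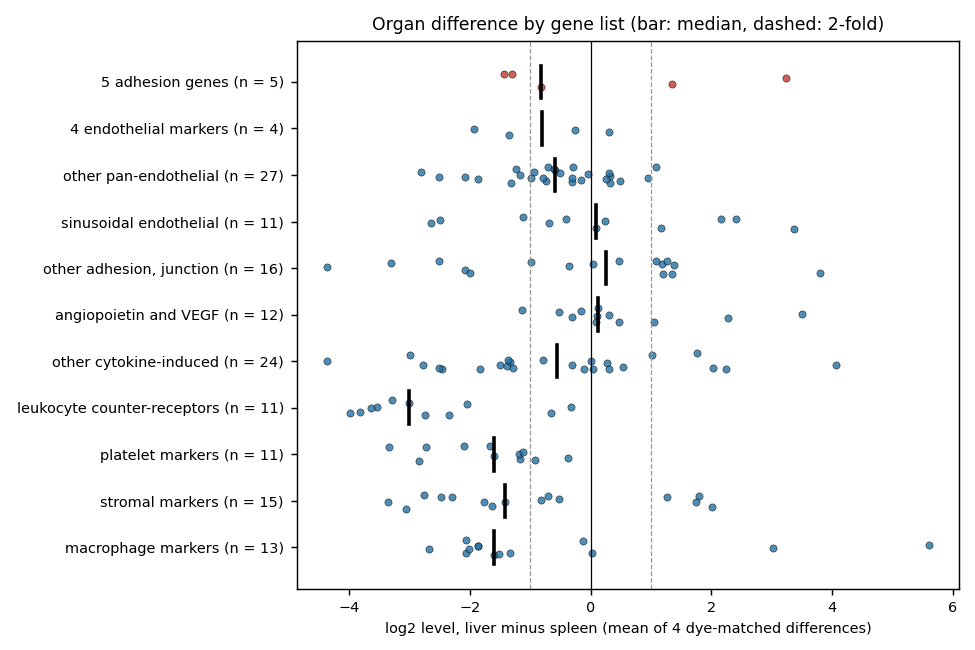
Liver minus spleen difference in log2 level (horizontal axis) for the genes of each list, 1 point per measurable gene. Thick bars are list medians and dashed lines mark 2-fold. The 5 adhesion genes (top row) reach from -1.43 to 3.23, while all 11 leukocyte counter-receptors and all 11 platelet markers lie below 0.

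The bases upstream of 4 of the genes are printed below because they hold matches to TGANTCA or to the NF-kB consensus. RefSeq's promoter table, on build GRCm38.p6, held 6 of the 10 genes: Sele, Selp, Icam1, Madcam1, Tek and Kdr. The 250 bases before each start were searched on both strands for 4 motifs, TGANTCA (N being any base), TATAAA, an interferon-response element and the NF-kB consensus. TGANTCA occurred once in Sele, from 73 to 67 bases before the start, and once in Selp, from 139 to 133 bases before it. It was not found in the window of Tek, which also had its higher level in liver, nor in those of Icam1, Madcam1 and Kdr. It occurs in 6.75% of 32851 promoter windows of that length. The NF-kB consensus occurred in Madcam1, at 83 to 74 and at 70 to 61 bases before the start, and in Kdr, at 74 to 65, and in 7.25% of all windows. It was searched only as GGGRNNYYCC (R being A or G, Y being C or T), and sites that depart from these letters were missed. The lack of a match in Sele, Selp, Icam1 and Tek therefore does not show that they lack NF-kB sites. TATAAA lay in Sele only, at 49 to 44 bases, and in 12.4% of all windows. The interferon-response element was in none of the 6 and in 2.98% of all. Capitals below mark TGANTCA or NF-kB matches within the last 150 bases before the start, read in the direction of the gene.
Sele, chr1:164048084-164048233, plus strand: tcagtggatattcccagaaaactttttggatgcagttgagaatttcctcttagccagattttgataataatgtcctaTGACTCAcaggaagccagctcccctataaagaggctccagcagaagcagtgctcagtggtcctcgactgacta
Selp, chr1:164115114-164115263, plus strand: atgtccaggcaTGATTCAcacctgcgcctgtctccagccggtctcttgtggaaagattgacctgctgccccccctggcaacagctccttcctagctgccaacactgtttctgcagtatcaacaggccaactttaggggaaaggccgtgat
Madcam1, chr10:79664409-79664558, plus strand: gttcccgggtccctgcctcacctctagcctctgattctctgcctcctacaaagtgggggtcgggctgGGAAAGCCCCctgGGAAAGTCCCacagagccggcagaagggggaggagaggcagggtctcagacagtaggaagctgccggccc
Kdr, chr5:75978456-75978605, minus strand: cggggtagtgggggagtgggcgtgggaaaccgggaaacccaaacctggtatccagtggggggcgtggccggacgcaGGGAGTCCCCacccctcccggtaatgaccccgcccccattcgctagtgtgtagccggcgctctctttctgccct
These are matches of letters, and no binding was measured.

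The question the study put was what the nucleoprotein diet did, and for these genes no diet difference passed the bound. A gene was called for diet when its log2 ratio of nucleoprotein over control passed 1.5-fold (0.58) in the same direction on both arrays. In liver, 0 of the 10 genes were called, against 0.326% of 16882 measurable genes (0.0118% higher and 0.314% lower). In spleen, 0 of the 10 were called, against 0.431% of 18788 (0.208% higher and 0.224% lower). At those background rates a count of 0 among 10 genes says little. In liver the mean ratios ran from -0.15 to 0.26, and in spleen they spanned -0.19 to 0.07. For comparison, 90% of all measurable genes had mean ratios between -0.14 and 0.16 in liver and between -0.15 and 0.13 in spleen. The channels of the 2 diets overlapped for 8 of the 10 genes in each organ. They did not for Angpt2 and Kdr in liver, against 16.7% of all measurable genes, nor for Selp and Kdr in spleen, against 21.6%. Repeat spots give the precision within an array, and the 5 probes spotted 10 times had spot SDs of 0.03 to 0.12.

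In liver the adhesion genes showed no common direction with diet. All 5 had ratios of opposite sign on the 2 arrays, as did 65.8% of all measurable genes. Sele was 0.35 on array 1 and -0.27 on array 2, a mean of 0.04 ± 0.44 (SD of 2 arrays). Selp was 0.30 and -0.09, a mean of 0.10 ± 0.27. For these 2 probes the sign followed the Cy5 dye and not the diet. The second Selp probe went the other way, at -0.30 and 0.09 (-0.11 ± 0.28), so the 2 probes of Selp differed in sign on each array. Icam1 was -0.19 and 0.24 (0.02 ± 0.30), Vcam1 was -0.21 and 0.06 (-0.07 ± 0.19), and Madcam1 was -0.05 and 0.14 (0.05 ± 0.13), where the sign followed Cy3. No mean exceeded its SD.

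In the main processing Angpt2 and Kdr had the largest mean ratios of the 10 genes in liver, but the ranking depended on the processing. Angpt2 was 0.10 on array 1 and 0.41 on array 2, a mean of 0.26 ± 0.22, or 1.19-fold higher in the nucleoprotein pool, and 2.74% of measurable genes had a larger one in either direction. The nucleoprotein channels (9.93 and 10.07) did not overlap the control channels (9.83 and 9.66), yet only array 2 was far from 0. Among the markers, Kdr was lower on both arrays, at -0.08 and -0.22 (-0.15 ± 0.10). With Feature Extraction's own log ratio the mean for Kdr was -0.55, larger in size than the 0.255 of Angpt2 under the same setting. Under median centring Selp (0.40), Icam1 (0.39), Cdh5 (0.37) and Vcam1 (0.25) exceeded Kdr (-0.16) in size. The median over all measurable genes was 0.17 in that setting. In the main processing Pecam1 was -0.02 and -0.11 (-0.07 ± 0.06), and Tek lay at 0.01 ± 0.01. Cdh5 was 0.58 and -0.39, a mean of 0.09 ± 0.69, the widest spread between dyes of the 10. The adhesion median minus the marker median was -0.03 on array 1 and 0.22 on array 2, 0.10 ± 0.18, so the adhesion genes did not differ from the markers beyond the spread between arrays.

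**Figure D4:**
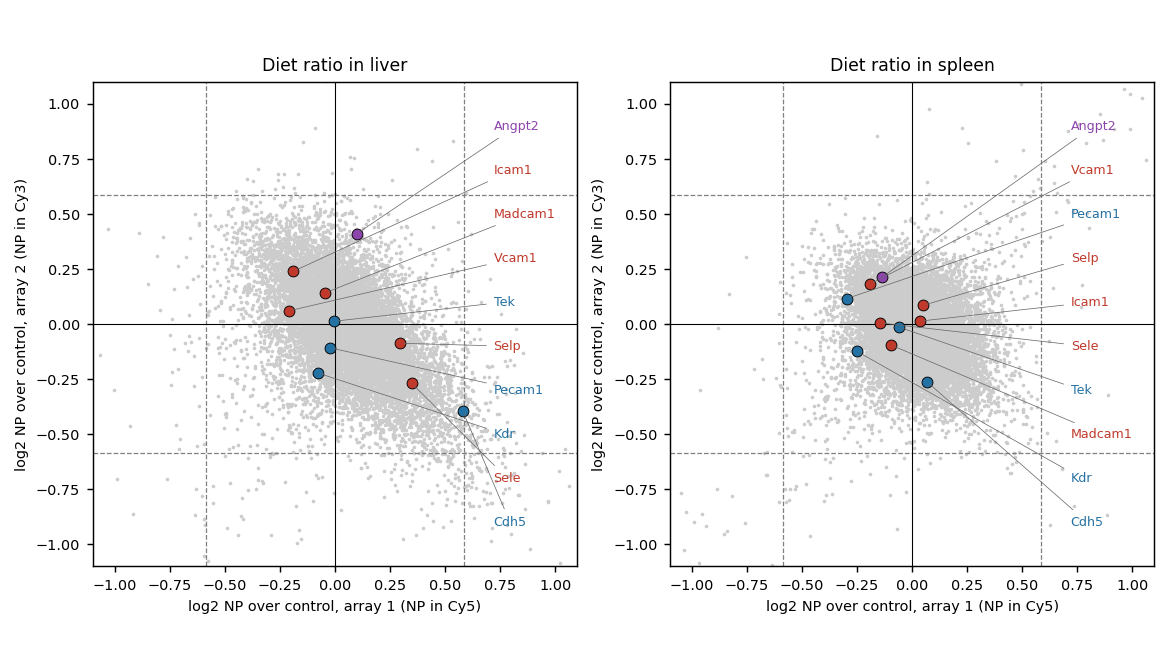
Diet ratio (log2 of nucleoprotein, NP, over control) on array 1 (horizontal axis) and on array 2 (vertical axis) in liver and spleen. Grey points are all measurable genes, red the adhesion genes, purple Angpt2 and blue the endothelial markers, and dashed lines mark 1.5-fold. A call needs a place in the outer lower-left or upper-right corner, and none of the 10 genes reached one. Genes beyond 1.1 on an axis, 53 in liver and 52 in spleen, are not drawn.

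In spleen no adhesion gene had a mean ratio beyond 0.10 in either direction. Sele was -0.15 and 0.01 on arrays 1 and 2 (-0.07 ± 0.11). Selp was 0.05 and 0.09 (0.07 ± 0.03), Icam1 0.04 and 0.01 (0.03 ± 0.02), and Madcam1 -0.10 on both (-0.10 ± 0.00). The second Selp probe gave -0.01 and 0.14 (0.07 ± 0.11), with opposite signs on the arrays. Vcam1 was -0.19 and 0.18, a mean of -0.00 ± 0.26, and Angpt2 was -0.14 and 0.21 (0.04 ± 0.25). These amount to at most 1.07-fold for any adhesion gene.

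All 4 markers had a mean below 0 in spleen, 2 of them with opposite signs on the 2 arrays. This did not hold for Tek under median centring (0.02), Feature Extraction's log ratio (0.09) or the authors' deposited table (0.09), nor for Pecam1 when its measurable probes were averaged (0.02). Kdr was -0.25 and -0.12 (-0.19 ± 0.09), or 1.14-fold lower in the nucleoprotein pool, and 4.81% of measurable genes had a larger ratio in either direction. Tek was -0.06 and -0.01 (-0.04 ± 0.03). Pecam1 was -0.30 and 0.12 (-0.09 ± 0.29), and Cdh5 was 0.07 and -0.26 (-0.10 ± 0.23). The median was -0.09 for the markers and -0.00 for the adhesion genes. The adhesion median minus the marker median was 0.06 and 0.08 on the 2 arrays, 0.07 ± 0.01. Under median centring it was 0.105 and -0.005, so the sign did not hold on both arrays. Among the 27 other pan-endothelial genes measured in spleen, 7 lay above 0 and 20 below, with a median of -0.04 and 0 called. In liver 17 of 26 lay above 0, with a median of 0.03 and 0 called. Kdr was thus the only gene of the 10 below 0 on all 4 arrays, although its liver signal was dim. Of the lists of counter-receptors, other adhesion genes, sinusoidal genes, angiopoietin and VEGF genes and cytokine-induced genes, 0 genes were called for diet in either organ.

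Markers of other tissues did move with diet in the same RNA pools. In liver, 18 of 18 pancreatic acinar genes were called lower with nucleoprotein, the median ratio being -3.84. In spleen 15 of 18 were called lower, with a median of -1.07, while 9 of 17 hepatocyte genes were called higher, with a median of 0.85. The summed acinar level in liver was 118194 and 121450 in the control channels and 7013 and 6695 in the nucleoprotein channels. Their part in the ratios of the 10 genes was not tested.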

How the data were processed

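Total RNA of liver and spleen was measured on 4 Agilent mouse whole-genome arrays from 1 slide, with both diet pools of an organ on each array. Per the file headers, the deposited scanner files hold the mean and background intensity of each spot, processed intensities, and the log10 of the red over green ratio. The submitters' processing notes name Agilent Feature Extraction, version 9.5.3.1. The authors' deposited value table holds the linear red over green ratio (column medians -0.92, 0.92, -0.96 and 0.96). The replicate 1 columns carry a minus sign of unstated purpose, and scale and direction were found by comparison with the scanner values. It was used as an alternative.

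Intensities were corrected with normexp (offset 50) and loess within arrays, control spots at weight 0 (limma 3.58.1, R 4.3.3). Outlier spots (189 to 354 per array) were left out, spots of a probe averaged, and ratios turned to nucleoprotein over control. Levels were scaled between arrays with Aquantile. The offset compresses differences of dim probes. Probes were named through RefSeq (GRCm38.p6), 22944 by accession and 8407 by name, with a synonym used only where no probe carried the gene otherwise, and 9823 kept the name in the file. The brightest probe stood for a gene. Array number limits the precision.

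The steps were tested on simulated data. A standard chow appears in the labels' housing protocol, but the diets given here follow the study design. The number of mice per pool is not given in the sources used here. The genes, the 17 lists and the rules were chosen with earlier results of these data known. Besides the 10 genes, the text names from each list the gene with the largest organ difference each way, genes called for diet and the 2 brightest, though not all of these are printed.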

Additional observations from a re-analysis of the deposited data

How the results depend on the processing

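No test was run. Calls were compared at their fold bounds, and other values with the SD between arrays. No paired analysis was possible because the results come from no test. Diet calls stayed at 0 of 10 genes in both organs under every alternative run: median centring, an offset of 10, Feature Extraction's log ratio, the authors' table, outlier spots kept, no filter, probe means, a 2-fold bound and each array alone. The single-gene diet values moved past the SD in 12 of 90 cases in liver and 9 of 90 in spleen. These cases include each array alone, which by construction cannot lie further than the SD from the mean. They also include the setting with no filter, which left these genes unchanged, so the counts understate how far values can move. Kdr stayed below 0 throughout, but in liver it ran from -0.55 (Feature Extraction) to -0.08 (array 1 alone). Angpt2 in liver ran from 0.10 to 0.50, the latter under median centring, where the median of all measurable genes was 0.17. The adhesion median minus the marker median was 0.34 in liver under median centring. In spleen it was 0.0496 under median centring (0.105 on array 1 and -0.005 on array 2). It was 0.10 with Feature Extraction's log ratio and 0.10 with the authors' table. Over all genes, median centring called 0 higher and 33 lower in liver and 30 higher and 11 lower in spleen, and Feature Extraction's log ratio called 29 and 107 in liver and 102 and 83 in spleen.

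Between organs, 2 genes in place of 1 were called brighter in liver (Sele joining Selp) under the 75th percentile, quantile scaling, an offset of 10 and a 1.5-fold bound, and 1 to 2 when either replicate was left out. Under the 75th percentile, 2 in place of 5 were called in spleen, and 4 when measurable probes of a gene were averaged. The organ difference of adhesion genes against markers turned from -0.01 to 0.50 under the 75th percentile. The first is the value of Madcam1 and the second that of Icam1, the middle adhesion gene in each setting. With probes averaged the group difference was -0.44, where Pecam1 moved to -0.78 and Cdh5 to 0.03 while Madcam1 stayed at -0.81. Why single genes moved under the 75th percentile was not tested. The 75th percentile called 4084 genes brighter in liver and 4686 in spleen, against 2421 and 3137. Signal over background limits Kdr, Pecam1 and Madcam1 in liver, and Tek in both organs.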
